A study of Mus musculus with 17 samples.

Results

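Dispatched, the product of Disp1, is a membrane protein through which cells that make cholesterol-modified Sonic hedgehog let it go. The 8 libraries described here are whole E9.5 mouse embryos, 1 embryo per library, out of 17 libraries in the series. They were taken as the columns of the deposited table that carry the Disp1 genotypes: 4 wild-type embryos (Disp1_WT) and 4 embryos that carried, in place of the wild-type Disp1, 1 CS and 1 INDEL allele (Disp1_CS_INDEL). All were C57BL/6J embryos from females heterozygous for the CS allele mated to males heterozygous for the INDEL allele, and the labels name no other allele or treatment. What the CS change is, and which embryos were littermates, is not given in the labels. The other 9 libraries are E8.5 embryos of a Myo10 experiment (4 Myo10_WT and 5 Myo10_m1J, homozygous for the m1J allele). They serve here for a test of whether an effect differed between the experiments. They also give a share to set beside that of the genes near Disp1, and enter an alternative fit of all 17 libraries. The comparison asks how the transcriptome of the whole embryo, inside and outside the Hedgehog pathway, differed when Disp1 was mutant.

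Sonic hedgehog is made by the notochord, the floor plate and the gut endoderm. In receiving cells it binds Patched, relieves the block on Smoothened and lets Gli factors switch on targets, among them Patched itself and Hhip, which bind the ligand and limit its spread. In the neural tube, high signal turns on ventral genes such as Nkx2-2 and Olig2, while Pax3, Pax7 and the Zic and Msx genes mark dorsal cells, where BMP and Wnt signals are strong. In the trunk the signal also reaches the sclerotome, which forms the vertebrae, and the mesenchyme around the gut, where the forkhead genes Foxf1 and Foxl1 respond to it.

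Levels below are TPM (an abundance scaled for transcript length and to the same total in each library) after median-of-ratios scaling of the libraries, given in the order of replicates 1 to 4. Differences are Disp1_CS_INDEL minus Disp1_WT on log2(scaled TPM + 1), which understates the change of genes near or under 1 TPM. Genes with at least 1 TPM in at least 4 of the 8 libraries were tested (13294 of 41709 symbols), and the words rose and fell are kept for genes that passed limma's test after Benjamini-Hochberg adjustment over all of them at 0.05. A gene is called nominally higher or lower where only its unadjusted limma p was under 0.05. Each library had 13103 to 13408 genes at 1 TPM or more and a size factor of 0.955 to 1.06. TPM does not record read depth, which is unknown here. In whole-embryo RNA, fewer cells of a type and less RNA per cell cannot be told apart.

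Some libraries stood apart before any comparison. Markers of yolk sac endoderm, a tissue outside the embryo, summed to 1150 scaled TPM over 16 listed genes in Disp1_WT replicate 3 and to between 60.8 and 109 in the other 7 libraries. Markers of decidua and trophoblast summed to 767 in the same library and to between 7.44 and 31.6 elsewhere. Tail bud and presomitic mesoderm markers summed to 151 in Disp1_WT replicate 3 and 145 in Disp1_CS_INDEL replicate 1, against 233 to 292 in the others, and the posterior Hox genes showed the same pair low (157 and 165 against 273 to 291). Hoxc10, a gene of the caudal end of the body axis, read 0.14 in the first and 1.38 in the second, against 40.2 to 55.3 elsewhere. The list counts that change without this pair of libraries are given after the lists. Replicate 4 of each genotype read as female and the other embryos as male. In both of these libraries 4 Y-linked genes summed to 0, against 30.9 to 42.0 elsewhere. Xist, the RNA of X inactivation, read 13.3 in both and 0 to 0.014 elsewhere.

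The Disp1 transcript itself read 18.3, 18.4, 17.6 and 16 in Disp1_WT and 15.4, 14.6, 14.6 and 12.1 in Disp1_CS_INDEL. The groups did not overlap, and the mutant mean of 14.2 ± 1.43 (SD, n = 4) was 80.7% of the wild-type mean of 17.6 ± 1.14 (SD, n = 4), with an exact two-sided permutation p of 0.0286, the smallest that 70 arrangements allow. Over all genes the difference of -0.29 did not pass limma's test (adjusted p = 0.818). A transcript level does not read a protein change, so it checks the genotype labels only in part.

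Across all genes, 8 passed the test. Srp9, Nkx2-9, Nkx2-2, Olig2, Hhip and Ptch1 fell (6 genes, 0.0451% of those tested), and Ifi204 and Lyplal1 rose (2 genes, 0.015%). They make 2 groups: Nkx2-9, Nkx2-2, Olig2, Hhip and Ptch1 are listed Hedgehog targets, while Srp9, Ifi204 and Lyplal1 lie near Disp1 on its chromosome. Of all genes, 161 (1.21%) were nominally higher and 222 (1.67%) nominally lower, and the groups did not overlap for 120 higher (0.903%) and 146 lower (1.1%) genes (2% in either direction). An unadjusted p under 0.01 was reached by 118 genes (0.888%), here split with each gene counted once. Of Disp1 and the genes near it, 16 of 159 tested reached it, and of Hedgehog targets and ventral neural tube genes 15 of 24. Dorsal neural tube genes had 6 of 15, members of other lists 20 of 576 and genes in no list 61 of 12520. The last is a smaller share than that of all genes.

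**Figure D1:**
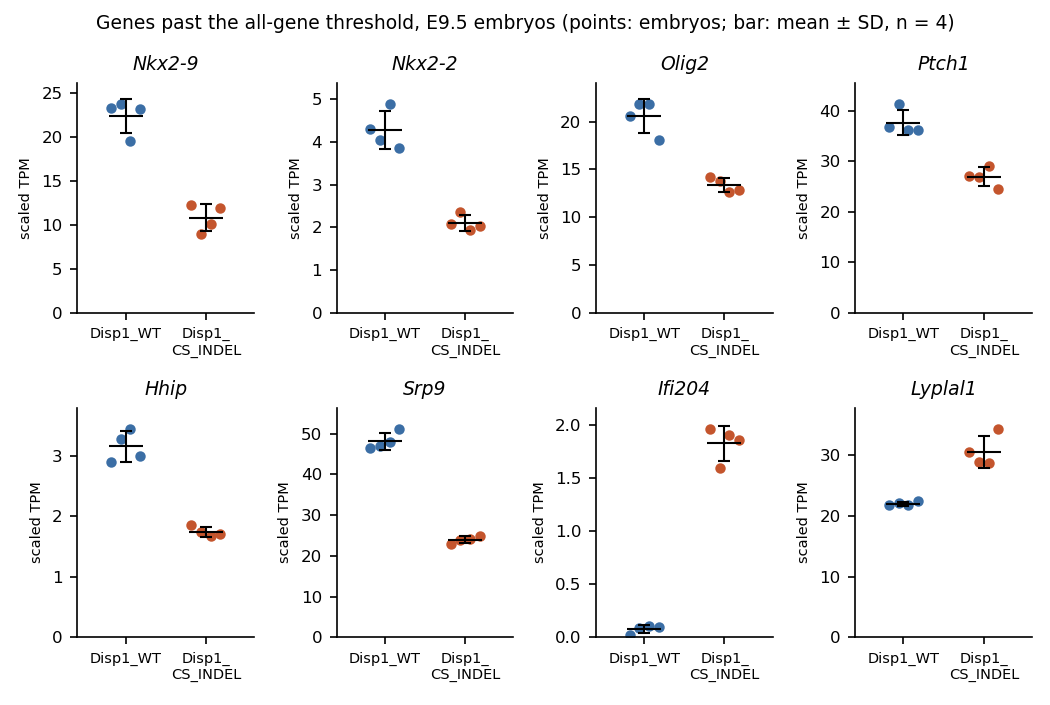
Scaled TPM (linear axis from 0) of the 8 genes that passed the test over all genes, by genotype; each point is an embryo, and the bars give the mean and SD of 4 embryos. For each gene the embryos of the 2 genotypes do not overlap; Srp9 and Nkx2-9 read 49.8% and 48.1% of the wild-type mean in the mutants.

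Among Hedgehog targets, the ligand-binding feedback genes and the ventral homeobox genes carried the largest differences. Nkx2-9, a homeobox gene of the cells beside the floor plate, read 23.2, 23.7, 19.5 and 23.1 in Disp1_WT and 12.2, 8.97, 10.05 and 11.9 in Disp1_CS_INDEL. Every mutant embryo lay far below every wild-type embryo, and Nkx2-9 fell by 1.00 (SE 0.0998, limma adjusted p = 0.00849). Nkx2-2, which specifies the most ventral interneuron progenitors, read 4.31, 4.05, 4.89 and 3.85 in Disp1_WT and 2.08, 2.36, 1.94 and 2.02 in Disp1_CS_INDEL. The mutant embryos sat within a narrow band at 49.1% of the wild-type mean, and Nkx2-2 fell by 0.77 (SE 0.0877, limma adjusted p = 0.0207). Olig2, the gene of motor neuron progenitors, which lie next in the ventral order, read 20.6, 21.8, 21.9 and 18.1 against 14.2, 13.8, 12.6 and 12.8. Its groups were also apart, with a mutant mean at 64.9% of wild type and a fall of 0.59 (SE 0.0714, limma adjusted p = 0.0285).

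Hhip, a membrane protein that binds and holds Hedgehog ligand, read 2.89, 3.28, 3.45 and 3.01 in Disp1_WT and 1.85, 1.74, 1.67 and 1.71 in Disp1_CS_INDEL. It fell by 0.60 (SE 0.0796, limma adjusted p = 0.0479), and its highest mutant lay well under its lowest wild type. Ptch1, the receptor and the most widely used readout of the pathway, read 36.8, 41.4, 36.2 and 36.3 against 27.0, 26.9, 29.1 and 24.5. The mutant mean was 71.4% of wild type (a fall of 0.47, SE 0.0645, limma adjusted p = 0.0480). The adjusted p of Hhip and Ptch1 stood just under the threshold, and neither passed once any 1 embryo was left out (limma adjusted p from 0.126 to 0.179 for Hhip and from 0.0813 to 0.229 for Ptch1). Without 1 embryo Nkx2-9 passed in 5 of 8 cases, with adjusted p up to 0.0763, and missed when replicates 1 or 2 of Disp1_WT or replicate 3 of Disp1_CS_INDEL were left out singly. Nkx2-2 passed in 2 of those cases, when Disp1_WT replicate 4 or Disp1_CS_INDEL replicate 2 was absent, and Olig2 in 1, without Disp1_WT replicate 4.

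Over the 14 listed Hedgehog targets the median difference was -0.48, beside -0.0012 over all genes tested, and 12 of them (85.7%) were lower with an unadjusted p under 0.05 against the 1.67% of all genes. These 12 include the 5 that fell. The list was chosen with earlier results of these data known, so its count is a description. Gli1, the activator that is itself a target, averaged 19.9 ± 3.66 in wild type and 13.6 ± 1.57 in mutants (difference -0.51; SD, n = 4 each). Its groups did not overlap, and its limma adjusted p was 0.647. The sclerotome gene Pax1 averaged 17.1 ± 1.92 and 13.8 ± 1.87 (-0.30), the 1 nominally lower target whose groups overlapped. The 2 targets that were not nominally different are also sclerotome genes: Pax9 averaged 3.03 ± 0.605 and 2.67 ± 0.328 (-0.13) and Nkx3-2 2.70 ± 0.540 and 2.89 ± 1.20 (0.03). For Nkx3-2 the sign of the difference turned when Disp1_WT replicate 4, Disp1_CS_INDEL replicate 1 or Disp1_CS_INDEL replicate 3 was left out.

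Gli factors bind a 9-base motif, and the promoters of the targets were read for it. The 250 bases before the annotated start of transcription are shown for 3 targets that fell and for Foxa2, the floor plate gene whose window was the 1 target window with a match. They come from RefSeq (GRCm38.p6, each on the minus strand, as chr12:56613285-56613534 for Nkx2-9, chr2:147186403-147186652 for Nkx2-2, chr13:63565736-63565985 for Ptch1 and chr2:148045465-148045714 for Foxa2), and run 5′ to 3′ towards the start. Capitals mark the match to GACCNCCCA, which in Foxa2 lies on the opposite strand and begins 66 bases before the start.
Nkx2-9: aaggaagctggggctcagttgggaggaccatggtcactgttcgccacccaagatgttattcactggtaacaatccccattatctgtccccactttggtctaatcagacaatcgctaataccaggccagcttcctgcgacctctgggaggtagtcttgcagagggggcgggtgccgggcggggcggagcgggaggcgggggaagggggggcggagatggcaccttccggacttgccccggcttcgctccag
Nkx2-2: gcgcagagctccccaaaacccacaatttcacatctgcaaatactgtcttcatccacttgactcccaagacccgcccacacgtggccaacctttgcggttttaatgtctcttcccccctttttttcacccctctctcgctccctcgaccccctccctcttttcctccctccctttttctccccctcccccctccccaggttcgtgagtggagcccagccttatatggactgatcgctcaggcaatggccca
Ptch1: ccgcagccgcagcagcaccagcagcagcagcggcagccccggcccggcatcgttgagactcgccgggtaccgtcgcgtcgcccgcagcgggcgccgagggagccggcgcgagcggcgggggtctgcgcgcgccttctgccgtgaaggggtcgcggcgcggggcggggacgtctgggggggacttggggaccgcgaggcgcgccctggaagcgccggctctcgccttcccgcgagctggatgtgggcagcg
Foxa2: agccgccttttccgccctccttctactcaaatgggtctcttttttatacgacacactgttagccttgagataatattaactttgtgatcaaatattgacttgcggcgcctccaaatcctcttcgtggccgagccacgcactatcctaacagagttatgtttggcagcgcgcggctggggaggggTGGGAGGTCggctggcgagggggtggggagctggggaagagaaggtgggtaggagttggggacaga
Both strands of windows of 300 bases (250 before and 50 after the start) were searched. The letters GACCACCCA were in 83 of 32851 windows (0.253%) and in 0 of the 12 windows of the 10 target genes that have an entry. The looser GACCNCCCA, which includes the first motif, was in 321 windows (0.977%) and in 1 target window, that of Foxa2. A match is a description of letters, and a window without one says only that these letters are not in it.

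Genes of the ventral neural tube were lower in the mutants and many dorsal ones higher, though most of them did not pass over all genes. Of 14 tested ventral and floor plate genes, 10 were nominally lower (71.4%, beside 1.67% of all genes, median -0.43), including the 3 that fell. In 8 the groups did not overlap (57.1%, beside 1.1% of all genes). Nkx6-1, a homeobox gene of a broad ventral domain, read 24.9, 27.8, 30.6 and 25.8 in Disp1_WT and 21.6, 16.8, 17.5 and 18 in Disp1_CS_INDEL (difference -0.54, limma adjusted p = 0.125). Its relative Nkx6-2 averaged 13.7 ± 2.48 and 8.0 ± 1.37 (-0.70), and Nkx2-1, which marks the ventral forebrain and also the thyroid and lung buds, 4.02 ± 0.927 and 1.99 ± 0.573 (-0.75; SD, n = 4 each). In each of these the mutants were all below the wild types, but none passed over all genes. The floor plate genes differed less: Foxa2 averaged 13.2 ± 1.54 and 9.45 ± 0.867 (-0.44), the matrix protein gene Spon1 23.2 ± 0.70 and 17.8 ± 1.95 (-0.37), and Ntn1, the axon attractant netrin, 70.7 ± 5.22 and 57.8 ± 7.59 (-0.29) with overlapping groups.

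Of 16 tested dorsal genes, 10 were nominally higher (62.5%, beside 1.21% of all genes), 0 were nominally lower, and the median difference was 0.24. Pax3, a paired-box gene of the dorsal neural tube, somites and neural crest, read 15.5, 17.3, 17.2 and 16 in Disp1_WT and 20.4, 21.8, 21.5 and 21.3 in Disp1_CS_INDEL. The 2 groups were clearly apart (difference 0.35), yet Pax3 missed the threshold over all genes (limma adjusted p = 0.106). Zic1 averaged 41.2 ± 4.45 and 54.0 ± 4.26 (0.38), Pax7 7.52 ± 0.994 and 9.93 ± 1.39 (0.36) and Msx1, a target of BMP signals, 76.1 ± 2.16 and 93.4 ± 6.75 (0.29; SD, n = 4 each). These 4 are the dorsal genes whose groups did not overlap (25%, beside 0.903% of all genes). Olig3 (0.39), Msx3 (0.36), Rspo1 (0.25), Zic2 (0.23), Zic5 (0.18) and Atoh1 (0.44) were nominally higher with overlapping groups. Disp1_WT replicate 3, the library with yolk sac and decidua transcripts, was the highest wild type for Msx3 (35.2, inside the mutant range of 33.7 to 37.2), and without it Msx3 passed over all genes (limma adjusted p = 0.0464).

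The summed dorsal level was 328 to 355 in Disp1_WT and 399 to 421 in Disp1_CS_INDEL, and the summed ventral level 205 to 232 and 150 to 181. In both sums the genotypes were apart in all 8 embryos, including the libraries with low caudal transcripts. The 9 tested genes of the intermediate neural tube, among them Pax6 and the Dbx and Irx genes, had 0 nominal differences, a median of -0.01 and a range from -0.24 to 0.30. Their summed level overlapped throughout (154 to 174 in wild type, 151 to 182 in mutants).

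**Figure D2:**
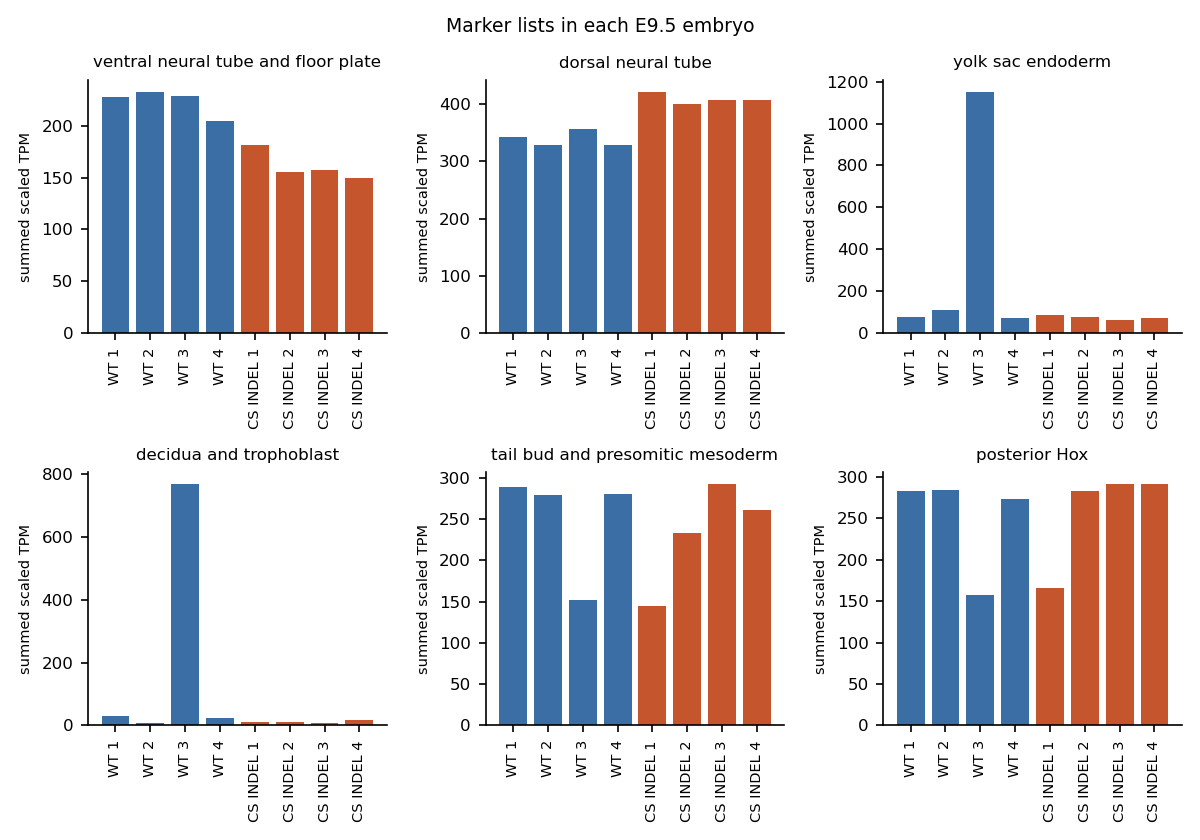
Summed scaled TPM (bars from 0, 1 bar per embryo, each list on its own axis) of 6 marker lists in Disp1_WT (blue) and Disp1_CS_INDEL (orange) embryos. Ventral sums separate the genotypes downwards and dorsal sums upwards, while Disp1_WT replicate 3 stands alone for yolk sac and decidua and shares low caudal sums with Disp1_CS_INDEL replicate 1.

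No gene of the early neuron and motor neuron lists passed over all genes. The 17 tested genes of early neurons had 0 nominal differences and a median of 0.13, with 14 of them above 0 (49.3% of all genes were). Their summed level ran from 342 to 495 in wild type and from 343 to 648 in mutants, the highest being Disp1_CS_INDEL replicate 2. Among 9 tested motor neuron genes, 2 were nominally lower (22.2%, beside 1.67% of all genes). Phox2a, a homeobox gene of cranial visceral motor neurons and autonomic ganglia, averaged 5.57 ± 0.289 and 4.36 ± 0.559 (-0.30; SD, n = 4 each), without overlap. The spinal motor neuron genes Mnx1, Isl1 and Lhx3 did not differ at this p.

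Of the 18 tested forebrain and eye genes, 3 were nominally higher (Emx2, Emx1 and Fezf1) and 3 nominally lower (Nkx2-1, Lhx5 and Six6). Together they were 33.3% of the tested genes, beside 2.88% of all genes, and the list median was 0.01. Emx2, a homeobox gene of the dorsal telencephalon, read 9.80, 9.5, 10.4 and 9.98 in Disp1_WT and 12.4, 12.9, 11.9 and 13.8 in Disp1_CS_INDEL (difference 0.33, limma adjusted p = 0.257). All mutants were above all wild types. From outside that list, Wnt8b, a ligand of the dorsal midline, averaged 7.43 ± 0.831 and 9.36 ± 0.374 (0.30), again without overlap. Dmrt3, a factor of the dorsomedial telencephalon and of spinal interneurons, averaged 3.49 ± 0.614 and 5.00 ± 0.567 (0.42). The rule that named Dmrt3 required groups that do not overlap. Rspo2, which amplifies Wnt signals and is in none of the lists, averaged 4.81 ± 0.241 and 6.40 ± 0.433 (0.35). Fzd10, a Wnt receptor gene of the dorsal neural tube, averaged 62.3 ± 3.37 and 73.1 ± 3.94 (0.23); it was picked after its values were seen.

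Of 16 tested genes of Hedgehog release, reception and transduction, 4 were nominally higher, 2 nominally lower and 0 passed (median 0.05). The nominally different share was 37.5%, beside 2.88% of all genes. The co-receptor gene Cdon, whose product holds the ligand at the receiving cell, read 42.1, 39.3, 41.7 and 40.2 in Disp1_WT and 53.7, 46.2, 51.7 and 44.8 in Disp1_CS_INDEL. The groups did not overlap (difference 0.26), and the adjusted p was 0.692 by limma. Gas1, another co-receptor, averaged 152 ± 9.96 and 179 ± 15.5 (0.23), Scube3, of the secreted family that helps take up released ligand, 38.9 ± 1.59 and 43.1 ± 2.83 (0.14), and Hhat, the enzyme that adds palmitate to the ligand, 3.18 ± 0.254 and 3.73 ± 0.138 (0.18; SD, n = 4 each). Hhat is also one of the genes near Disp1. Shh was nominally lower at 23.9 ± 1.33 and 20.6 ± 1.78 (-0.21; exact two-sided permutation p = 0.0571). Beside Disp1 and Shh no member was nominally lower, and the other 10 ranged from -0.23 (Ihh, the gut endoderm ligand) to 0.17 (Scube1).

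**Figure D3:**
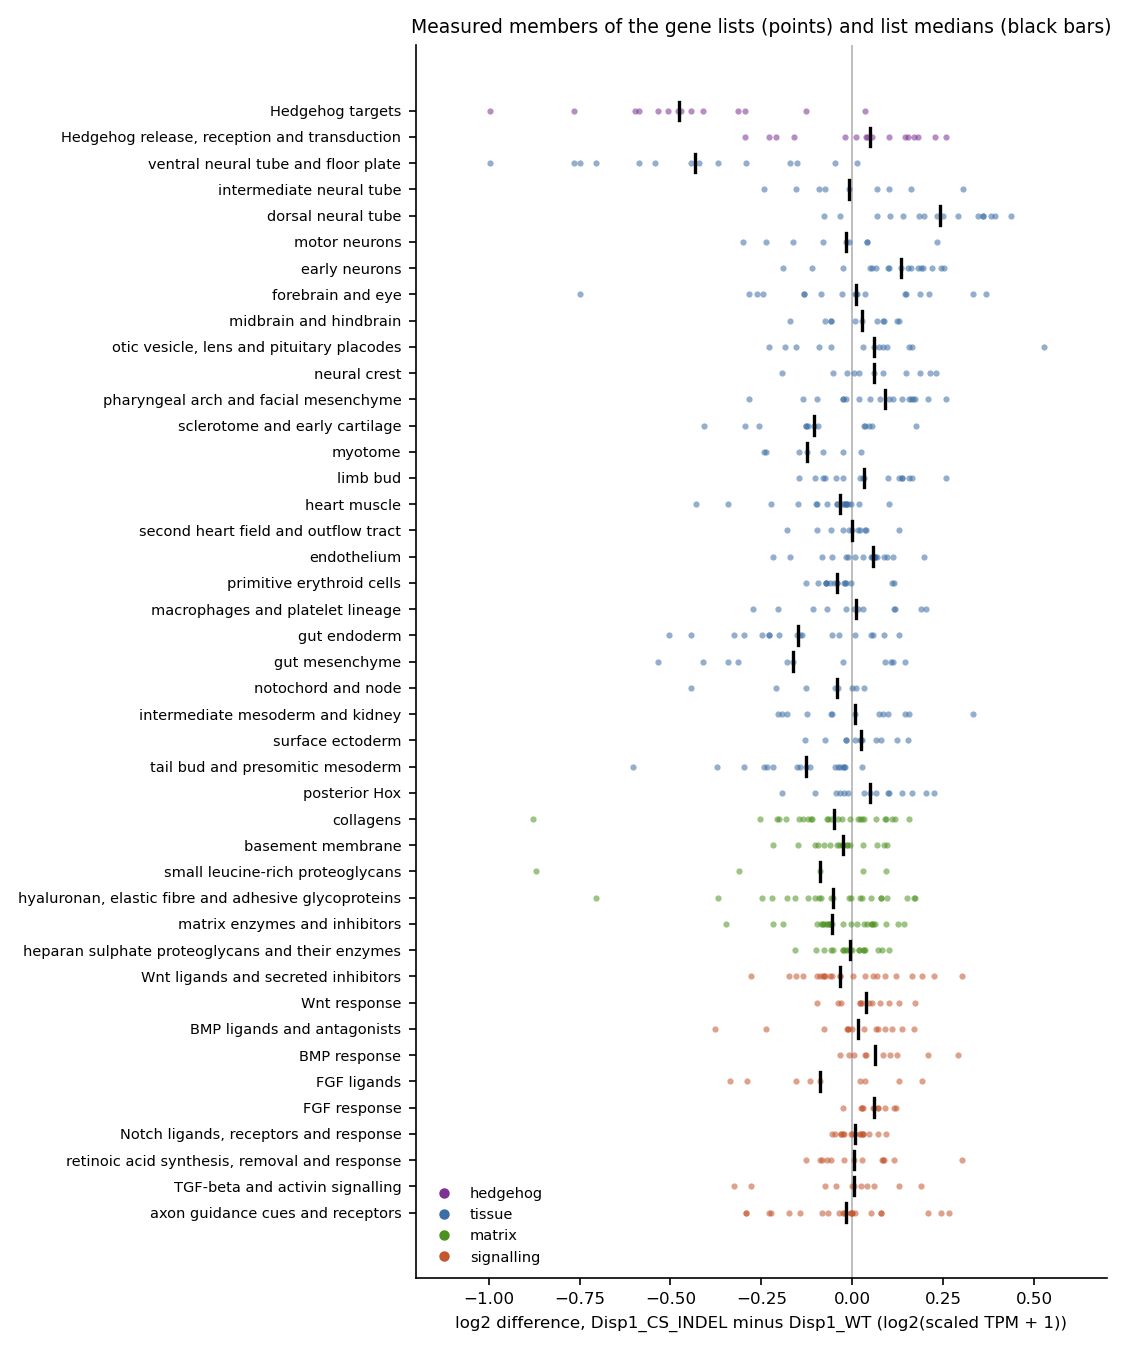
Difference between genotypes on the log2(scaled TPM + 1) scale (horizontal axis) for each tested member of the Hedgehog, tissue, matrix and signalling lists; points are genes and black bars list medians. The Hedgehog target and ventral neural tube medians lie at -0.48 and -0.43 and the dorsal median at 0.24, while most other medians lie within 0.1 of 0.

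Some genes of the gut and the mesenchyme around it were lower. Of 11 tested genes of gut mesenchyme, 4 were nominally lower (36.4%, beside 1.67% of all genes) and 0 higher (median -0.16). In all 4 the groups did not overlap (36.4%, beside 1.1% of all genes). Foxf2 read 12.4, 10.5, 10.1 and 10.2 in Disp1_WT and 6.87, 8.49, 6.58 and 6.62 in Disp1_CS_INDEL (difference -0.54, limma adjusted p = 0.174). Its relatives Foxf1 (27.9 ± 0.647 and 22.3 ± 1.80, -0.31) and Foxl1 (3.76 ± 0.306 and 2.57 ± 0.127, -0.41), and Hand1, a factor of lateral mesoderm and heart (75.8 ± 7.56 and 59.6 ± 5.17, -0.34), had the same pattern. The 3 forkhead genes are also in the Hedgehog target list, so Hand1 is the added member. Barx1 and Bmp4, which the same mesenchyme makes, were not nominally different.

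Among 18 tested gut endoderm genes, 4 were nominally lower (22.2%, beside 1.67% of all genes, median -0.15). They were Foxa2 and the epithelial genes Cdh1 (31.4 ± 2.34 and 26.6 ± 1.96, -0.23), Krt8 (248 ± 23.7 and 199 ± 29.9, -0.32) and Krt18 (203 ± 4.17 and 173 ± 27.5, -0.25; SD, n = 4 each). Krt8 overlapped, with Disp1_CS_INDEL replicate 3 (226) above Disp1_WT replicate 3 (221). The summed level of the listed endoderm genes was 744 to 809 in wild type and 545 to 724 in mutants. Krt8 and Krt18 are large beside this sum, so it does not read the endoderm as a whole. The surface ectoderm list had 1 nominally higher gene (8.33%, beside 1.21% of all genes) and 0 nominally lower of 12 tested.

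Other mesoderm lists held a few nominal differences each, where 2.88% of all genes were nominally different. In the sclerotome and early cartilage list, 2 of 13 tested genes (15.4%) were nominally lower, Pax1 among them. Sox9 and Col2a1 were not nominally different. The intermediate mesoderm and kidney list had 3 of 13 (23.1%). They were Emx2 (higher) and the nephron progenitor genes Eya1 (12.6 ± 0.620 and 14.1 ± 0.837, 0.16, higher) and Six2 (23.4 ± 1.27 and 20.3 ± 2.64, -0.21, lower). The limb bud list had 1 of 16 (6.25%), Prrx1 (18.6 ± 0.843 and 22.5 ± 2.52, 0.26), which is shared with facial mesenchyme. Myotome (7 tested genes), second heart field (11), primitive erythroid cells (15) and posterior Hox genes (15) had 0 nominal differences. The heart muscle list had Hand1 alone of 18 (5.56%). In the limb bud and heart muscle lists the share rests on 1 gene.

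Some genes of the face and the neural crest were nominally higher. In the pharyngeal arch and facial mesenchyme list, Alx4, Prrx1 and Dlx5 were nominally higher and Foxd1 nominally lower of 18 tested genes (median 0.09). Together they were 22.2% of the tested genes, beside 2.88% of all genes. Alx4, a craniofacial and limb homeobox gene, read 17.4, 18.8, 19.6 and 19.4 in Disp1_WT and 20.9, 23.7, 21.7 and 21.2 in Disp1_CS_INDEL (0.21). The groups did not touch, though the difference was small. Foxd1 went the other way (18.9 ± 1.24 and 15.4 ± 2.20, -0.28). Of 11 neural crest genes, Tfap2b (13.9 ± 1.29 and 16.5 ± 1.23, 0.23) and Sox10 (21.0 ± 2.02 and 24.5 ± 2.74, 0.21; SD, n = 4 each) were nominally higher. They were 18.2% of that list, beside 1.21% of all genes. In endothelium, Erg was nominally higher (0.20) and Apln and Egfl7 nominally lower of 20 tested genes (15%, beside 2.88% of all genes).

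In the extracellular matrix no gene passed over all genes, and the nominal differences were all lower. Nominally lower shares ran from 0% (basement membrane) to 40% (small leucine-rich proteoglycans, 2 of 5), beside 1.67% of all genes. Lum, which encodes lumican, a proteoglycan that organises collagen fibrils, read 49.0, 62.1, 51.9 and 36.9 in Disp1_WT and 27.8, 28.7, 22.7 and 27.1 in Disp1_CS_INDEL. All mutants were below all wild types at 53.2% of the wild-type mean, the difference was -0.87 (SE 0.137), and the adjusted p was 0.106 by limma. Without Disp1_WT replicate 4, the lowest wild type, Lum passed (limma adjusted p = 0.0136). Dcn, decorin, a second small leucine-rich proteoglycan, averaged 3.76 ± 0.288 and 2.86 ± 0.529 (-0.31; SD, n = 4 each). These were the 2 nominally lower genes among 5 tested of that family, of which 10 further members were under the filter.

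Col1a1, the main chain of type I collagen, read 327, 296, 162 and 185 in Disp1_WT and 111, 165, 108 and 127 in Disp1_CS_INDEL. The mean difference was -0.88, yet the groups touched, since Disp1_CS_INDEL replicate 2 lay above Disp1_WT replicate 3. Its partner chain Col1a2 averaged 84.4 ± 7.87 and 70.6 ± 6.10 (-0.25), and Col3a1 171 ± 10.6 and 151 ± 15 (-0.18; SD, n = 4 each). With Col5a2 (-0.21) and Col6a1 (-0.20) these were the 5 nominally lower of 26 tested collagens (19.2%, median -0.05), and 0 of them had groups that did not overlap. The cartilage collagen Col2a1 and the basement membrane chains Col4a1 and Col4a2 were not nominally different.

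Postn, periostin, an adhesive protein of collagen-rich tissue, read 41.8, 59.6, 35.9 and 28.4 in Disp1_WT and 27.4, 27.5, 23.0 and 19.5 in Disp1_CS_INDEL (-0.71). The highest mutant was just under the lowest wild type, and the wild types were themselves widely spread. Has2, which makes hyaluronan (23.7 ± 1.93 and 20.2 ± 1.58, -0.22), Hapln3, which links it to proteoglycans (7.56 ± 0.749 and 6.20 ± 0.529, -0.25), and Spon1 were also nominally lower of 23 tested genes. Among 25 tested matrix enzymes and inhibitors 3 were nominally lower: Adamts2, which trims procollagen (2.20 ± 0.287 and 1.50 ± 0.0423, -0.35), and the prolyl hydroxylases P4ha2 (-0.22) and P4ha1 (-0.10). Of these, Adamts2 and P4ha1 had groups that did not overlap. Creb3l1, a transcription factor that drives collagen secretion, picked after its values were seen, read 22.1, 17.2, 12.7 and 11 against 7.74, 11.1, 6.07 and 9.63 (-0.78), with Disp1_CS_INDEL replicate 2 above Disp1_WT replicate 4. Of 20 heparan sulphate proteoglycan genes, 1 was nominally different (Sdc4, -0.16), and of 18 basement membrane genes 0 (median -0.03). Without Disp1_WT replicate 3 and Disp1_CS_INDEL replicate 1 together, 2 basement membrane genes were nominally lower, and the medians were -0.09 there and -0.11 over the collagens.

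**Figure D4:**
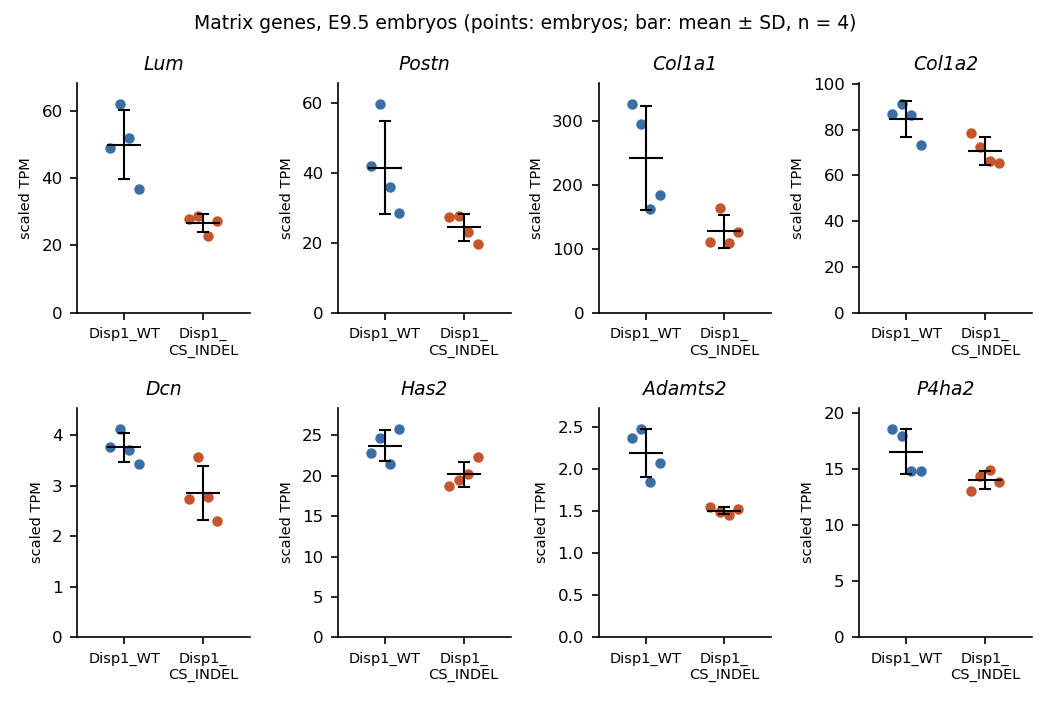
Scaled TPM (linear axes from 0) of 8 matrix genes by genotype; points are embryos and bars the mean and SD of 4. Lum, Postn and Adamts2 mutants lie below every wild type, while Col1a1 has 2 wild types near 300 and 2 inside or near the mutant range.

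In the lists of signalling pathways other than Hedgehog, no gene passed over all genes. The nominally different share ran from 0% (FGF response, Notch) to 13% (Wnt ligands and inhibitors) and 17.4% (axon guidance), beside 2.88% of all genes. Among 23 tested Wnt ligands and inhibitors, Wnt8b was nominally higher and the inhibitors Dkk3 (14.3 ± 0.791 and 11.7 ± 1.11, -0.28) and Sfrp1 (143 ± 4.37 and 130 ± 7.95, -0.13) nominally lower. Axin2, a general Wnt target, was the 1 nominally higher gene of 12 in the Wnt response list (44.4 ± 2.93 and 50.2 ± 4.07, 0.17; SD, n = 4 each). Msx1 was the 1 of 10 in the BMP response list, whose Id and Smad genes were not nominally different. Fst, follistatin, which binds activins and BMPs, averaged 15.2 ± 2.05 and 11.4 ± 1.64 (-0.38), with 1 mutant embryo inside the wild-type range.

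Fgf15, a growth factor of the neural tube and forebrain, averaged 26.9 ± 2.77 and 21.8 ± 1.85 (-0.29), and was the 1 nominally different of 9 tested FGF ligands. The FGF response list (Spry, Dusp and Etv genes) had 0 of 11 and the Notch list 0 of 17, the second with every difference between -0.06 and 0.09. Aldh1a1, a retinaldehyde dehydrogenase, was the 1 of 13 in the retinoic acid list (1.88 ± 0.216 and 2.57 ± 0.487, 0.30), and Tgfbr3, a co-receptor of TGF-beta, the 1 of 11 in the TGF-beta list (13.1 ± 0.851 and 10.7 ± 0.948, -0.28). Among 23 axon guidance genes, Draxin was nominally higher (0.24) and Ephb1 (-0.23), Ntn1 and Sema3e (-0.29) nominally lower. The p53 targets had 0 of 16, and the cell cycle list had Ccnd2, cyclin D2 (226 ± 14.2 and 196 ± 13.9, -0.21), as 1 of 22.

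Without Disp1_WT replicate 3 and Disp1_CS_INDEL replicate 1 together, a setting chosen after seeing the data, the counts of nominal differences moved by at most 2 in a list. More genes were nominally lower for sclerotome (4 in place of 2), notochord and node (3 for 2), gut mesenchyme (5 for 4), heart muscle (2 for 1), tail bud (1 for 0), yolk sac (2 for 0), basement membrane (2 for 0), adhesive glycoproteins (5 for 4), Wnt ligands and inhibitors (3 for 2), FGF ligands (2 for 1) and axon guidance (4 for 3). Fewer were lower for the ventral neural tube (9 for 10), the forebrain (2 for 3) and the small leucine-rich proteoglycans (1 for 2). Fewer were nominally higher for the dorsal neural tube (8 for 10), Hedgehog release and reception (2 for 4), the placodes (0 for 2), neural crest (1 for 2), facial mesenchyme (2 for 3), Wnt response (0 for 1) and retinoic acid (0 for 1), and more for limb bud (2 for 1), posterior Hox (1 for 0) and p53 targets (1 for 0). Intermediate mesoderm had 1 higher and 2 lower in place of 2 and 1. The Hedgehog target count stayed at 12.

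Among genes near Disp1 a large share had small p-values. Gene order was taken from RefSeq (GRCm38.p6), counted in tested genes, and no coordinates are given because the deposited values rest on another build. Of 158 tested genes within 100 places of Disp1, 31 (19.6%) had an unadjusted p under 0.05, 10 of them higher and 21 lower, and 21 (13.3%) had groups that did not overlap. Elsewhere on the same chromosome 16 of 554 (2.89%) had such a p, and over all genes 2.88%. Groups did not overlap for 1.99% elsewhere on the chromosome and 2% of all genes. In the Myo10 experiment, where Disp1 was not mutant, the same region had 7 of 158 genes (4.43%) with an unadjusted p under 0.05, against 7.48% of all genes in that comparison. Both of these Myo10 shares come from a fit of all 17 libraries, while the Disp1 shares come from the fit of 8. In the Disp1 comparison the share was 13 of 50 within 25 places, 6 of 50 from 26 to 50 places and 12 of 58 from 51 to 100 places. The window is not even on the 2 sides, since the tested genes end 58 places after Disp1, at Cr1l. The last band therefore lies mostly before Disp1, and G0s2 was its only gene with such a p after Disp1.

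Srp9, 6 places before Disp1, encodes a subunit of the signal recognition particle, which brings secreted and membrane proteins to the endoplasmic reticulum. It read 46.6, 46.9, 47.9 and 51.2 in Disp1_WT and 23.0, 23.8, 24.1 and 24.9 in Disp1_CS_INDEL. The spread within each genotype was small beside the gap, the mutant mean was 49.8% of wild type, and Srp9 fell by 0.98 (SE 0.0483, limma adjusted p = 3.44e-05). Of the 11 tested genes of the particle and its receptor, Srp9 alone was nominally different, and its binding partner Srp14 averaged 180 ± 23.1 and 189 ± 5.25 (0.07; SD, n = 4 each), a difference whose sign turned without Disp1_WT replicate 2. How reads shared with copies of Srp9 were assigned is not stated in any source used, so its level carries that uncertainty.

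Ifi204, 46 places before Disp1, belongs to the Ifi200 family of interferon-inducible DNA sensors. It read 0.02, 0.09, 0.11 and 0.09 in Disp1_WT and 1.96, 1.59, 1.90 and 1.86 in Disp1_CS_INDEL, so it was near 0 in every wild type and between 1.5 and 2 TPM in every mutant. It rose by 1.39 (SE 0.0946, limma adjusted p = 3.57e-04). It was 1 of 4 tested genes that passed the filter through the mutant libraries alone, and it was also called without any filter. Its neighbour and family member Aim2 was nominally lower (3.38 ± 0.432 and 2.26 ± 0.297, -0.42), without overlap. Ifi202b was under the filter and listed at 0, 0, 0.04 and 0.05 in wild type and 0.23, 0.69, 0.14 and 0.28 in mutants, and Ifi211 at 0.30, 0.14, 0.29 and 0.14 against 0.11, 0.04, 0.07 and 0. The family is a gene cluster, and how similar its members are was not measured here. How reads shared among them were assigned is not stated, so reads may be split among members. Interferon response genes outside the family had 0 nominal differences of 9 tested, and markers of macrophages and platelets had 0 of 12.

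Lyplal1, a lysophospholipase-like gene 17 places after Disp1, read 21.7, 22.1, 21.8 and 22.5 in Disp1_WT and 30.5, 28.9, 28.7 and 34.4 in Disp1_CS_INDEL. The wild types were nearly identical and the mutants all higher, at 139% of the wild-type mean, and Lyplal1 rose by 0.45 (SE 0.0611, limma adjusted p = 0.0479). It did not pass without any 1 embryo (limma adjusted p from 0.0563 to 0.229). Bpnt1, a nucleotide phosphatase 13 places after, read 41.8, 41.8, 42.4 and 44.4 against 31.6, 30.6, 36.2 and 32.7 (-0.37, limma adjusted p = 0.105). Psen2, presenilin 2, a catalytic subunit of gamma-secretase 22 places before, read 5.09, 4.64, 5.94 and 5.28 against 3.27, 3.14, 3.56 and 2.78 (-0.57, limma adjusted p = 0.106). Both had groups that were well apart but did not pass.

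Smaller differences without overlap ran on both sides. Those before Disp1 include Lbr, the lamin B receptor (8 places, 89.8% of wild type), Cnih4, a cargo receptor of the secretory pathway (10 places, 121%), Dusp23 (50 places, 78.6%), Pigm, of glycolipid anchor synthesis (53 places, 85.0%), Copa, a coatomer subunit (60 places, 89.4%) and Cfap126 (82 places, 71.8%). Those after it include Mtarc2 (8 places, 79.3%), Iars2, the mitochondrial isoleucine tRNA ligase (12 places, 88.6%), Tatdn3 (32 places, 137%) and Hhat (47 places, 117%). Higher and lower genes were mixed: Cnih4 was higher between Psen2 and Srp9, both lower, and Lyplal1 higher beyond Bpnt1, lower.

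**Figure D5:**
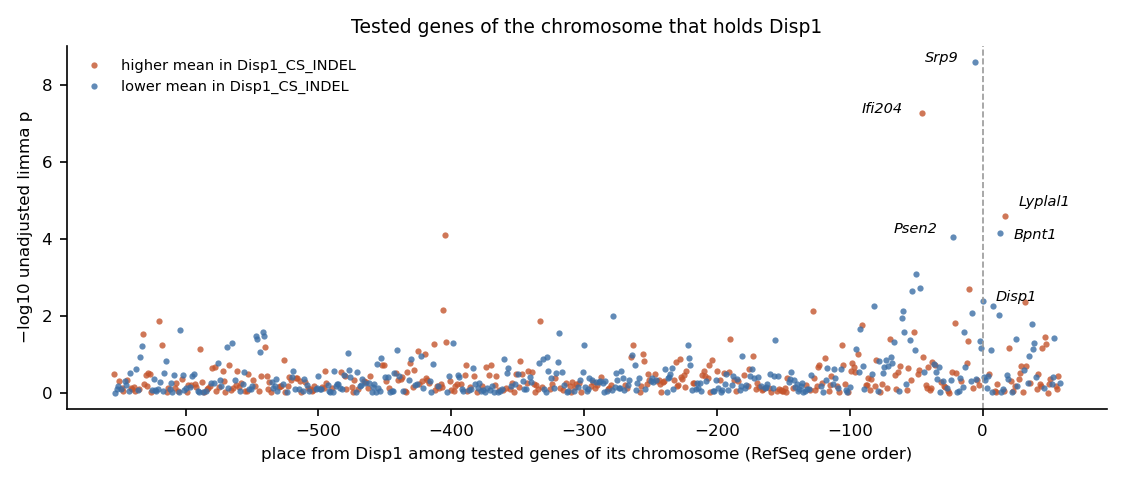
Each point is a tested gene of the chromosome that holds Disp1, by its place from Disp1 in gene order (horizontal axis, in tested genes) and the −log10 of its unadjusted limma p (vertical axis); colours give the sign of the difference. Srp9, Ifi204, Lyplal1, Bpnt1 and Psen2 stand highest close to Disp1 (dashed line), and higher and lower genes are mixed there.

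For Srp9 and Ifi204 the mutant effect differed between the experiments when the difference itself was tested. In 1 fit of all 17 libraries, the Disp1 effect minus the Myo10 effect passed for 3 of 13910 genes (0.0216%): Myo10 itself, Ifi204 (difference 1.13, limma adjusted over all genes) and Srp9 (-1.05). For the Hedgehog targets and the other genes described here that difference did not pass, so no difference between the experiments is shown for them. Age and genotype differ together between the experiments, and cannot be told apart in this test.

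Outside the lists and away from Disp1, 61 of 12520 tested genes had an unadjusted p under 0.01, 29 higher and 32 lower. This is a smaller share than the 0.888% of all genes, and none of them passed over all genes. The metallothionein Mt1, which binds zinc, read 98.6, 93.5, 175 and 101 in Disp1_WT and 68.5, 74.5, 56.3 and 81.6 in Disp1_CS_INDEL (-0.69). The mutants were all lower, and the highest wild type was replicate 3, which also carried yolk sac markers; their part in the result was not tested. Pianp, a neuronal membrane protein gene, read 2.66, 0.34, 0.92 and 2.13 against 5.79, 3.27, 6.08 and 3.02 (1.20), a large difference with wide spread inside both groups. Tox2, a transcription factor gene, averaged 16.7 ± 1.25 and 12.4 ± 0.788 (-0.40), Fam162b 4.27 ± 0.799 and 2.40 ± 0.314 (-0.62), Ccn4, a Wnt-induced matrix-associated protein, 8.01 ± 1.40 and 5.35 ± 0.456 (-0.50), Galnt12, a mucin-type glycosyltransferase, 6.36 ± 0.954 and 9.23 ± 0.894 (0.48), and Calb2, the calcium-binding protein calretinin, 1.55 ± 0.279 and 2.52 ± 0.428 (0.46; SD, n = 4 each). Each of these had groups that did not overlap, as 2% of all genes did. The rule that named Mt1, Pianp, Galnt12 and Calb2 required this, and Ccn4 was picked after its values were seen. For these genes the lack of overlap is therefore no further result. Calb2 was barely apart, with a highest wild type of 1.952 and a lowest mutant of 1.956.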

How the data were processed

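RNA of single whole embryos was purified with an RNeasy Micro kit and sequenced as TruSeq libraries on a NovaSeq instrument, per the labels' protocols. The table deposited by the authors holds TPM per gene symbol, summing to 1000000 in each library; the build is GRCm39 (mm39) per the submitters' processing notes, while which aligner, counting tool and gene models were used is not stated in those notes. Read depth is therefore unknown, and no counting interval is given. Each embryo is 1 animal, and shared litters are not labelled.

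From the table, median-of-ratios scaling, log2(scaled TPM + 1) and a filter of 1 TPM in 4 of the 8 libraries gave 13294 genes, tested with limma 3.58.1 (R 4.3.3, mean-variance trend, Benjamini-Hochberg adjustment at 0.05) in a fit of the 8 libraries alone. Single levels were compared by exact two-sided permutation of embryos. The difference between experiments came from a fit of all 17 libraries. Gene order came from RefSeq GRCm38.p6 (30209 of 41709 symbols matched). The members and the 51 gene lists were chosen with earlier results of these data known, and 5 of the listed symbols had no row. The rule for named genes took Disp1, Shh and Myo10, genes that passed, the next 15 by p, the 10 largest differences each way without overlap at a mean of at least 2 scaled TPM, every Hedgehog target, list members that were the first 3 by p or had p under 0.01, genes near Disp1 with p under 0.01, the 5 with the largest spread in each genotype, and up to 5 that passed the difference between experiments. Olig1, Scube3, Hhat, Zic2, Zic5, Atoh1, Rspo1, Emx1, Fezf1, Six6, Fzd10, Dlx5, Krt18, Col5a2, Col6a1, Hapln3, Creb3l1, Ccn4, Sema3e, Mt2, Srp14, Ihh, Scube1 and list members given as not nominally different were named after their values were seen. Some genes that the rule takes are not reported here. Data were simulated for this comparison with normal noise (13294 genes, 50 changed by each of 0.5, 1, 2 and 3). The changed genes were drawn only from those above about 5 scaled TPM in wild type. Of genes changed by 0.5, 72% were recovered, and of those changed by 1, 100%. There, 12 genes were called falsely (6.06% of the calls). More genes were changed than passed in the embryos, so these shares are not the power over all genes tested.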

Additional observations from a re-analysis of the deposited data

Results flagged for a closer look

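Several embryos lay far from the other 3 of their genotype by a gap test that chance alone meets in about 1 in 20 groups of 4. Disp1_WT replicate 3 was such an embryo for the summed yolk sac markers (1150), decidua and trophoblast markers (767), tail bud markers (151) and posterior Hox genes (157), and for the metallothioneins Mt1 (175) and Mt2 (427). Disp1_CS_INDEL replicate 1 was one for the posterior Hox genes (165), and Disp1_CS_INDEL replicate 2 for markers of macrophages and platelets (132, against 27.8 to 31.0 in the other mutants). Single wild-type values stood apart for Nkx2-9 (19.5 in replicate 3), Ptch1 (41.4 in replicate 2) and Shh (21.9 in replicate 4), of which the first and the third were the lowest of their group.

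The mutant effect differed between the Disp1 and the Myo10 experiment, by limma in 1 fit of all libraries, for Myo10 (2.48), Ifi204 (1.13) and Srp9 (-1.05). In that fit the effects in the Disp1 experiment were 0.04, 1.15 and -0.96, and those in the Myo10 experiment -2.44, 0.02 and 0.09.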

How the results depend on the processing

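Srp9 and Ifi204 passed in every setting that tested them (18 and 17 settings), Nkx2-9 in 14 of 19, Nkx2-2 in 8 of 18, Olig2 in 7 of 19, Hhip and Lyplal1 in 4 of 18 each and Ptch1 in 3 of 19. Against 2 genes called higher and 6 lower, there were 1 and 3 without scaling, 1 and 1 without a filter, 0 and 3 at a mean TPM of at least 5, 1 and 5 without a trend, 2 and 3 in a fit of all 17 libraries (Psen2 passed there), and 0 and 3 without genes near Disp1. Without 1 embryo there were 1 to 2 higher and 1 to 5 lower, and without Disp1_WT replicate 3 and Disp1_CS_INDEL replicate 1 together, added after seeing the data, 1 and 2. With the mean of the Y-linked genes as a covariate there were 2 higher and 5 lower, and Hhip did not pass. With the replicate number as a block there were 1 higher and 2 lower. Same-numbered embryos did not in general deviate together (correlations 0.0884, 0.0822, -0.241 and 0.355, 1 of 4 best with its own number), so the numbers were not taken as pairs. The pair at 0.355, replicate 4, is the 2 female embryos, and the part of sex in it was not tested.

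The Disp1 level gave an exact permutation p of 0.0571 without scaling (difference -0.28) and, the smallest p possible there, without any 1 embryo (differences from -0.34 to -0.23). Over 114 genes, 2042 of 2121 values kept direction and side of the threshold, 71 lost the call, 3 gained it and 5 turned sign. The 5 were Nkx3-2 without Disp1_WT replicate 4 (-0.06), Disp1_CS_INDEL replicate 1 (-0.09), Disp1_CS_INDEL replicate 3 (-0.10) or both caudal-low embryos (-0.031), and Srp14 without Disp1_WT replicate 2 (-0.011), with highest values of 0.18 for Nkx3-2 and 0.14 for Srp14 without 1 embryo; the cause was not tested. With 4 embryos a genotype and unknown depth, a gene that missed the threshold is not shown to be unchanged.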
